A study of Homo sapiens with 6 samples.

Results

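The genes described here are 33 genes of glycolysis and of the response to low oxygen, out of 20036 genes in the deposited table. They were chosen by name, from the enzymes and transporters of the glycolytic route and from known targets and regulators of the hypoxia-inducible factor HIF. ALDOA and LDHB were left out because neighbouring genes that overlap them depress their values. The RNA came from KGN cells, an established human ovarian granulosa tumour line labelled as wild type. The first group received the small interfering RNA siOGT1 against OGT, the next received siOGT2, a different siRNA against the same mRNA, and the control group received siNC, a negative control siRNA. All were transfected with Lipofectamine 3000 and harvested after 48 hours, with 2 libraries per group and 6 in all. OGT encodes the enzyme that adds the single sugar O-GlcNAc to proteins of the nucleus and cytosol. The labels do not say that libraries of a group were grown as separate cultures, so the p-values measure the spread between these libraries, which may be technical.

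Glycolysis splits glucose into pyruvate in the cytosol. A preparatory phase spends ATP to make triose phosphates, and a payoff phase recovers it. When oxygen is short, the alpha subunit of HIF escapes hydroxylation by prolyl hydroxylases and destruction through the VHL ubiquitin ligase, and the stable factor raises transcription of many glycolytic genes and of genes for acid export, blood vessel growth and mitophagy. In the ovary, granulosa cells around the oocyte are known for active glycolysis that supplies it with pyruvate and lactate. HIF binds DNA at a short core, ACGTG or GCGTG.

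Promoters are shown for the members whose change is described first or that differed between the OGT siRNAs, as far as RefSeq's promoter table (GRCh38.p14) held them. Each line gives the 250 bases before the start annotated by RefSeq, 5′ to 3′ on the gene's strand. Every ACGTG or GCGTG on either strand is in capitals (read as CACGT or CACGC where it lies on the other strand). GENCODE places the starts of these genes elsewhere, for GAPDH at 6533927 against 6535264 in RefSeq. By the GENCODE positions given below, the windows of GAPDH, ADM and CA12 lie inside the gene, and those of HK2 and LDHA do so in part.
HK2 (chr2:74833877-74834126, plus strand): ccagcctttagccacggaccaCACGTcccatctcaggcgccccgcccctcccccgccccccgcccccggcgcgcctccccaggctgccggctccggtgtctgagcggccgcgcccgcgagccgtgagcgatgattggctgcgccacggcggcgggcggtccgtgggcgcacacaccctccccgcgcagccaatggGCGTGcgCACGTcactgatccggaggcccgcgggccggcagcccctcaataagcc
ADM (chr11:10304823-10305072, plus strand): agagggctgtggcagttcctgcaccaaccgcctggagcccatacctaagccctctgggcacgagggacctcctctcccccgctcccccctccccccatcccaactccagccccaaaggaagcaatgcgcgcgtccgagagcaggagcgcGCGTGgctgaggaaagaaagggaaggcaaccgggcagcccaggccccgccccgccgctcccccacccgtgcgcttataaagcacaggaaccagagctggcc
LDHA (chr11:18394313-18394562, plus strand): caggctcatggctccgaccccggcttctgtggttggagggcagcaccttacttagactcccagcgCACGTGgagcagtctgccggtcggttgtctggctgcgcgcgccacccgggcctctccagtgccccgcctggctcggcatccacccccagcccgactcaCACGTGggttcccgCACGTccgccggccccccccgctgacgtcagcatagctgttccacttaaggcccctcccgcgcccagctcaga
GAPDH (chr12:6535014-6535263, plus strand): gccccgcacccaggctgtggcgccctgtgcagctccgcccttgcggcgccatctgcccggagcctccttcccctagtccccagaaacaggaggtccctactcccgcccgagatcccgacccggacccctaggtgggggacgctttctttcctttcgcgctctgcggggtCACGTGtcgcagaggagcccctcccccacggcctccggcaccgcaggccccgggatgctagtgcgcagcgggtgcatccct
CA12 (chr15:63381847-63382096, minus strand): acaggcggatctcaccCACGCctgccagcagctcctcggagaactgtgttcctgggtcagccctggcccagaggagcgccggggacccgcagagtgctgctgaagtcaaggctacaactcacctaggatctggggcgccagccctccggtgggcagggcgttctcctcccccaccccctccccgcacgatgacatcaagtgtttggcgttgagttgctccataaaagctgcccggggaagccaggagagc

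LDHA held 5 cores in this window, HK2 held 3, GAPDH held 2, and ADM and CA12 held 1 each. The CACGTG palindrome reads as a core on both strands, so each of its copies counts as 2 overlapping cores, which is the case for 4 of the 5 in LDHA and for both in GAPDH. Promoters of 30 of the 33 members were in the table, and 19 of the 30 held at least 1 core. The core was present in 43.2% of all 35116 promoters in the table and in 58.4% of the 8693 promoters of tested genes. Whether the number of cores goes with the change of a member was not tested. SLC16A1 was not found in the table.

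The read totals recovered from the values ran from 16756649 in siOGT2 replicate 2 to 21416489 in siOGT1 replicate 2. OGT itself stood at 13.4 ± 0.658 FPKM with siOGT1, 14.5 ± 0.268 with siOGT2 and 22.9 ± 0.659 with siNC (SD, n = 2), so the labels hold for the targeted gene. FPKM is a fragment count scaled by gene length and by library total. Of 14 granulosa cell markers, 8 had a mean of at least 1 FPKM, among them FOXL2 at 5.70, AMH at 6.75 and NR5A1 at 19.3. FSHR, the receptor for follicle-stimulating hormone, was at 0 in every library, and CYP19A1, which encodes aromatase, averaged 0.00185 FPKM. None of 5 leukocyte markers and none of 5 endothelial markers reached a mean of 1 FPKM, while 3 of 5 fibroblast and stroma markers and 2 of 4 epithelial markers did. Transcripts encoded in mitochondria, used here as a measure of RNA quality, took 2.07% and 2.09% of the total with siOGT1, 2.305% and 2.34% with siOGT2, and 2.01% and 1.99% with siNC.

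Levels among the members spanned more than 2 orders of magnitude. With siNC the highest was GAPDH, the dehydrogenase that opens the payoff phase, at 307 ± 9.94 FPKM (SD, n = 2). HIF1A, the oxygen-regulated subunit of HIF, came next at 285 ± 2.33, above PKM (189 ± 4.28), which makes pyruvate, and ENO1 (174 ± 3.82), the enolase found in most tissues. Neighbours in this order were further apart than their SDs. At the other end, 4 members stayed below a mean of 1 FPKM and were not tested. EGLN3, a prolyl hydroxylase that marks HIF alpha subunits for destruction and is itself a HIF target, had between 0 and 2 reads per library. CA9, a cell-surface carbonic anhydrase widely used as a hypoxia marker, had between 0 and 4. ALDOC, the aldolase best known from brain, had between 11 and 15 reads, or 0.209 to 0.320 FPKM. ANKRD37, a small ankyrin repeat HIF target, had between 29 and 41 reads, or 0.601 to 0.927 FPKM. Exons of other genes on the opposite strand cover 38.5% of the exon length of CA9 and 35.2% of that of ANKRD37, and the labels do not say whether counting used strand. The glucose transporter SLC2A1, at 2.29 ± 0.0712 FPKM with siNC, was also among the lowest, while its relative SLC2A3 stood at 30.1 and 29.96 FPKM in the siNC libraries.

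**Figure D1:**
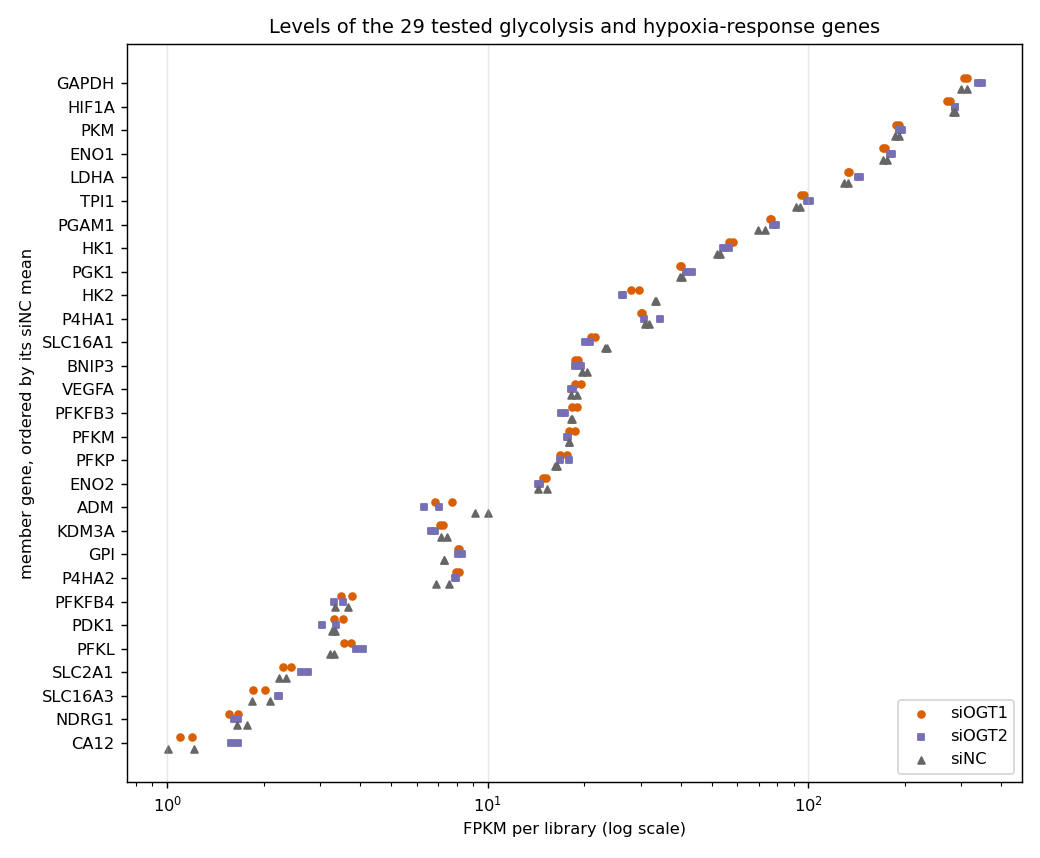
FPKM of the 29 tested members in each library on a log axis, ordered by the siNC mean; circles are siOGT1, squares siOGT2 and triangles siNC, with 2 libraries each. The 3 groups lie close together for most genes, and the order from GAPDH at 307 FPKM to CA12 at 1.11 FPKM with siNC is far wider than any change between groups.

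In limma, of the 29 tested members 3 fell with each OGT siRNA and none rose with each. The 3 were HK2, the inducible hexokinase that traps glucose in the cell, ADM, which encodes the vasodilator peptide adrenomedullin, and SLC16A1, the proton-coupled lactate and pyruvate transporter MCT1. Of all 10547 genes tested, 5.11% fell with each siRNA and 7.25% rose with each. The siOGT1 and siOGT2 comparisons share their siNC libraries, so they are not independent of each other. In RNA from a whole culture, less RNA in every cell and fewer cells that express a gene cannot be told apart.

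HK2 (ENSG00000159399, GRCh38 chromosome 2, 74833981 to 74893359, plus strand) had 29.6 and 28.02 FPKM with siOGT1 and 26.2 and 26.3 with siOGT2, against 33.3 and 33.6 with siNC. All 4 siOGT libraries lay below both siNC libraries, and both siOGT2 libraries lay below both siOGT1 libraries. The siOGT1 mean was 86.2% of siNC, and the siOGT2 mean 78.5%. On the log2(FPKM + 1) scale used for all tests, HK2 fell by 0.21 with siOGT1 (SE 0.0359, adjusted p = 0.00401) and by 0.34 with siOGT2 (SE 0.0359, adjusted p = 0.000153; limma over all tested genes, with Benjamini-Hochberg adjustment). These calls held under each of the 11 alternative settings tried.

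ADM (ENSG00000148926, chromosome 11, 10304680 to 10307397, plus strand) showed the largest fall among the tested members in the deposited scaling. It had 6.85 and 7.73 FPKM with siOGT1 and 7.07 and 6.31 with siOGT2, against 10.03 and 9.11 with siNC. The siOGT groups overlapped each other and neither overlapped siNC. The mean level was 76.2% of siNC with siOGT1 and 69.9% with siOGT2, with log2 fold changes of -0.35 (SE 0.0704, adjusted p = 0.00882) and -0.46 (SE 0.0704, adjusted p = 0.00126). The siOGT2 call held under each of the 11 settings. The siOGT1 call ended without siNC replicate 1 (adjusted p = 0.0774), without siOGT1 replicate 1 (0.0528) and with no filter on low values (0.0627).

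SLC16A1 (ENSG00000155380, chromosome 1, 112911847 to 112957013, minus strand) had 21.6 and 20.97 FPKM with siOGT1 and 20.9 and 20.1 with siOGT2, against 23.5 and 23.2 with siNC. The siOGT groups again lay below both siNC libraries. The fall was smaller than that of HK2, with log2 fold changes of -0.13 (SE 0.0362, adjusted p = 0.0391) for siOGT1 and -0.18 (adjusted p = 0.00541) for siOGT2. The siOGT2 call held under each setting, whereas the siOGT1 call ended with no filter (adjusted p = 0.0681) and without any 1 of the 4 libraries compared (0.0666 to 0.173). SLC16A3, the lactate exporter MCT4, had 1.94 ± 0.116 FPKM with siOGT1 and 2.22 ± 0.0131 with siOGT2, against 1.97 ± 0.180 with siNC, and passed with neither (adjusted p = 0.903 and 0.216). SLC2A1 did not pass either, at 2.36 ± 0.102, 2.69 ± 0.0936 and 2.29 ± 0.0712 FPKM in siOGT1, siOGT2 and siNC (SD, n = 2).

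**Figure D2:**
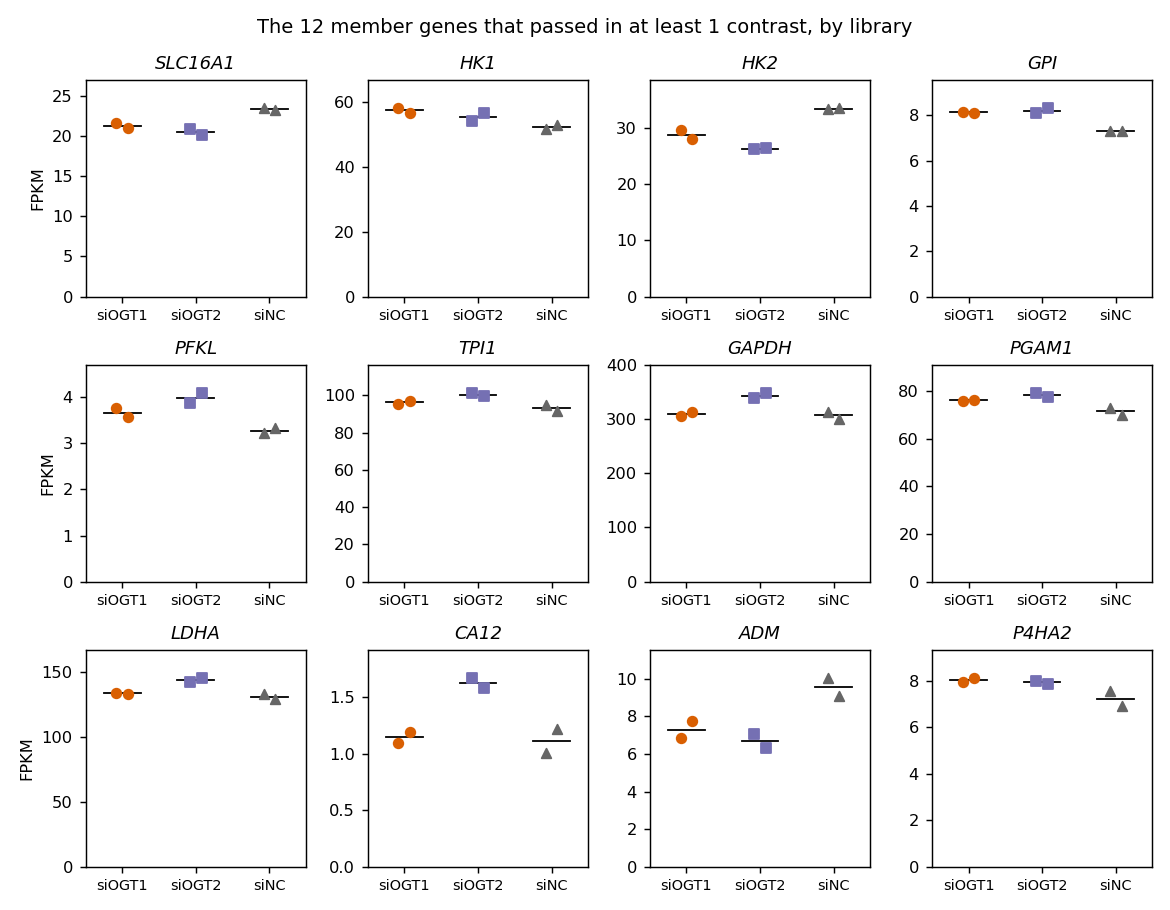
FPKM by library (y axis from 0) of the 12 members that passed in at least 1 of the 4 contrasts; each point is a library and each line a group mean, with siOGT1 and siOGT2 left of siNC. For HK2, ADM and SLC16A1 all 4 siOGT libraries lie below both siNC libraries, and for PFKL, TPI1, GAPDH, PGAM1, LDHA and CA12 both siOGT2 libraries stand above the other 4.

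Counted over all tested members, 4 of 29 passed with siOGT1, 1 higher and 3 lower, where 17.6% of all tested genes passed (9.51% higher, 8.1% lower). With siOGT2, 10 of 29 passed, 7 higher and 3 lower, where 35.5% of all genes passed (22.1% higher, 13.4% lower). In the mean of both siRNAs against siNC, 10 passed, again 7 higher and 3 lower, against 31.1% of all genes (19.4% higher, 11.8% lower). The 7 were HK1, GPI, PFKL, GAPDH, PGAM1, LDHA and P4HA2, and the 3 were HK2, ADM and SLC16A1. The members' shares were 13.8%, 34.5% and 34.5%, so each lay near the share among all genes. Their median log2 fold changes of 0.024, 0.052 and 0.021 also lay near the medians of all tested genes, 0.032, 0.045 and 0.036. Rescaling moves every gene of a library by the same factor. When each library was scaled to the others by the trimmed mean of its log ratios, 0 members were higher and 3 lower with siOGT1, 3 higher and 5 lower with siOGT2, and 0 higher and 4 lower in the mean of both. Under the same scaling all 10547 genes gave 548 higher and 1008 lower with siOGT1 (1003 and 854 as deposited), 1374 and 1865 with siOGT2 (2329 and 1411 as deposited), and 1121 and 1651 in the mean (2041 and 1243 as deposited). The turn in the members' counts was thus shared by the table as a whole. The counts also fell when some single libraries were left out. Such a fit has 1 library in a group and fewer degrees of freedom. COL3A1, a gene outside the members, lost its siOGT1 and siOGT2 calls without either siNC library too. INHBB, also outside the members, kept its calls with both siRNAs there, and LUM kept its siOGT1 call. The share of all genes that passed in these fits is not given here. The siOGT1 count was 1 without siNC replicate 1 or without siOGT1 replicate 1, and 2 without siNC replicate 2. The siOGT2 count was 6 without siNC replicate 1 and 5 without siNC replicate 2 or siOGT2 replicate 2, and the count for the mean was then 4, 3 and 5.

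**Figure D3:**
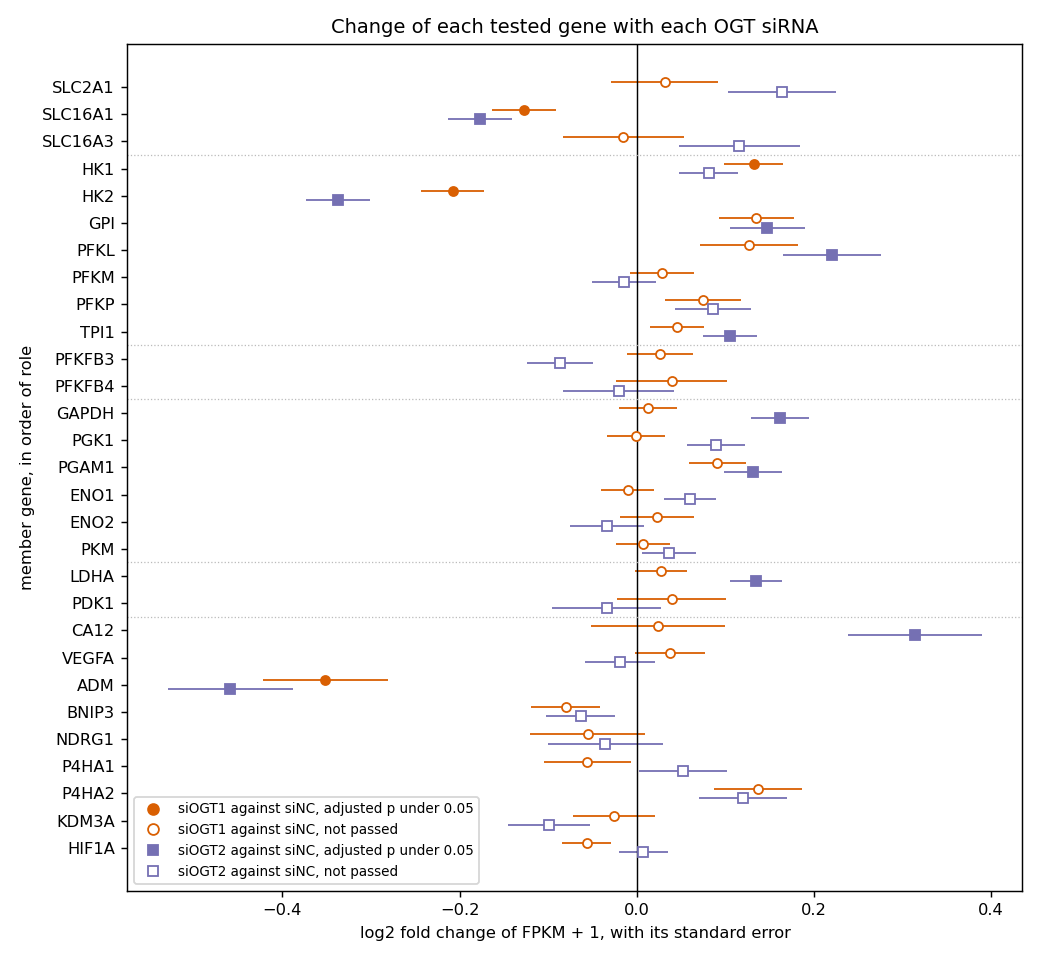
Log2 fold change of FPKM + 1 with its standard error for each tested member, siOGT1 (circles) and siOGT2 (squares) against siNC, in order of role from transporters to HIF1A; filled symbols passed at an adjusted p under 0.05. Filled symbols on the left for both siRNAs are those of SLC16A1, HK2 and ADM, while on the right 7 are filled for siOGT2 and 1 for siOGT1.

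Among the 7 tested genes of the preparatory steps, 1 fell and 1 rose with siOGT1, and 1 fell and 3 rose with siOGT2. The shares that passed were 28.6% and 57.1%, against 17.6% and 35.5% of all tested genes, a difference that was not tested. HK1, the hexokinase of most tissues that binds the outer mitochondrial membrane, had 58.2 and 56.7 FPKM with siOGT1 and 54.3 and 56.6 with siOGT2, against 51.8 and 52.9 with siNC. All 4 siOGT libraries lay above both siNC libraries, opposite to HK2. HK1 rose with siOGT1 (log2 fold change 0.13, SE 0.0332, adjusted p = 0.0245) and did not pass with siOGT2 (0.08, adjusted p = 0.0858; 0.0380 in the voom fit, which uses recovered reads). The siOGT1 call ended under the trimmed mean (adjusted p = 0.0844), without siNC replicate 1 (0.145), siNC replicate 2 (0.0795) or siOGT1 replicate 1 (0.103), and with no filter (0.0627).

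The balance between the hexokinases is a ratio within each library, which a scale factor per library leaves as it is. HK2 made up 33.8% and 33.1% of the summed FPKM of HK1 and HK2 with siOGT1 and 32.5% and 31.8% with siOGT2, against 39.2% and 38.8% with siNC. The groups did not overlap. The sum of both stood at 86.3 FPKM with siOGT1, 81.7 with siOGT2 and 85.8 with siNC. HKDC1, a further hexokinase gene from the list of other pathway genes, rose with each siRNA. It had 15.7 and 14.9 FPKM with siOGT1 and 14.1 and 14.1 with siOGT2, against 12.5 and 12.04 with siNC. Its log2 fold changes were 0.30 (adjusted p = 0.00108) and 0.19 (adjusted p = 0.00764), and the siOGT2 call ended without siNC replicate 2.

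**Figure D4:**
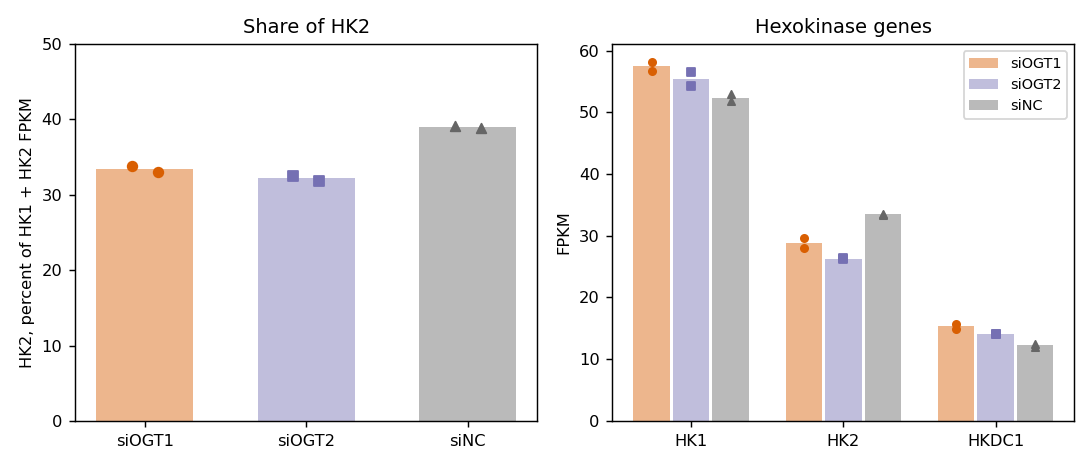
Left, HK2 as a percent of the summed FPKM of HK1 and HK2 in each library, with bars at the group mean. Right, FPKM of HK1, HK2 and HKDC1, with bars at the mean of 2 libraries and points for each library. HK2 made up 31.8% to 33.8% of the sum in the siOGT libraries and 38.8% to 39.2% in the siNC libraries, and HKDC1 was higher in all 4 siOGT libraries.

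GPI, which turns glucose 6-phosphate into fructose 6-phosphate, had 8.15 and 8.09 FPKM with siOGT1 and 8.09 and 8.315 with siOGT2, against 7.30 and 7.32 with siNC. Its groups did not overlap siNC, and it rose with siOGT2 (log2 fold change 0.15, SE 0.0423, adjusted p = 0.0242), while siOGT1 gave 0.13 (adjusted p = 0.0562; 0.0114 in the voom fit). PFKL, the liver-type phosphofructokinase, had 3.755 and 3.57 FPKM with siOGT1 and 3.87 and 4.085 with siOGT2, against 3.22 and 3.325 with siNC. It rose with siOGT2 (0.22, SE 0.0555, adjusted p = 0.0141) and did not pass with siOGT1 (0.13, adjusted p = 0.152). TPI1, triosephosphate isomerase, had 95.3 and 97.2 FPKM with siOGT1 and 101 and 99.4 with siOGT2, against 94.6 and 91.8 with siNC, and rose with siOGT2 (0.11, SE 0.0301, adjusted p = 0.0239) without passing with siOGT1 (0.05, adjusted p = 0.340). All 3 genes lay above siNC in every siOGT library. Under the trimmed mean PFKL kept its siOGT2 call (adjusted p = 0.0355), and GPI and TPI1 lost theirs (0.0936 and 0.190). The PFKL call ended without siNC replicate 1 (0.0757) or siOGT2 replicate 2 (0.0860), and those of GPI and TPI1 ended without any 1 of the 4 siOGT2 and siNC libraries (0.0501 to 0.154).

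The other phosphofructokinase genes passed in no contrast. PFKM, the muscle type, had 18.3 ± 0.540, 17.7 ± 0.0201 and 17.9 ± 0.00543 FPKM in siOGT1, siOGT2 and siNC, and PFKP, the platelet type, had 17.3 ± 0.588, 17.4 ± 0.781 and 16.3 ± 0.172 (SD, n = 2). PFKL made up 9.35% and 10.2% of the summed phosphofructokinase FPKM with siOGT1 and siOGT2 and 8.72% with siNC. PFKFB3 makes fructose 2,6-bisphosphate, the main activator of phosphofructokinase, and PFKFB4 can make or break it. PFKFB3 had 18.3 and 18.96 FPKM with siOGT1 and 17.4 and 16.9 with siOGT2, against 18.3 and 18.2 with siNC. It did not pass in the deposited scaling (adjusted p = 0.0952 for siOGT2) and was called lower with siOGT2 under the trimmed mean (log2 fold change -0.13, adjusted p = 0.0217). PFKFB4 ranged from 3.32 to 3.76 FPKM over all 6 libraries.

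Of the 6 payoff genes, none passed with siOGT1 in limma, where 1 had an unadjusted p under 0.05, and 2 rose with siOGT2. The share that passed with siOGT2 was 33.3%, near the 35.5% of all tested genes, and 17.6% of all genes passed with siOGT1. GAPDH (ENSG00000111640, chromosome 12, 6533927 to 6538374, plus strand) had 306 and 313 FPKM with siOGT1 and 339 and 348 with siOGT2, against 314 and 299.8 with siNC. The siOGT2 libraries were above all others, and those of siOGT1 and siNC overlapped. GAPDH rose with siOGT2 (log2 fold change 0.16, SE 0.0330, adjusted p = 0.00544) and not with siOGT1 (0.01, adjusted p = 0.830). PGAM1, the phosphoglycerate mutase, had 75.9 and 76.5 FPKM with siOGT1 and 79.2 and 77.5 with siOGT2, against 73.1 and 69.9 with siNC, and rose with siOGT2 (0.13, SE 0.0323, adjusted p = 0.0130). Under the trimmed mean GAPDH kept its call (adjusted p = 0.0283) and PGAM1 lost it (0.0896). The GAPDH call ended without siNC replicate 2 (0.0539) or siOGT2 replicate 2 (0.0566), and that of PGAM1 without siNC replicate 2 (0.105) or siOGT2 replicate 1 (0.0767).

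The other 4 payoff genes did not pass in any contrast, except that the voom fit called PGK1 higher with siOGT2 (adjusted p = 0.0338). PGK1, the first ATP-making kinase of the route, had 39.97 ± 0.324 FPKM with siOGT1 and 42.6 ± 1.30 with siOGT2, against 40.0 ± 0.423 with siNC (SD, n = 2). ENO1 had 172 ± 2.02 and 181 ± 2.21, against 174 ± 3.82, and PKM had 190 ± 2.60 and 194 ± 3.54, against 189 ± 4.28. ENO2, the neuronal enolase, ranged from 14.3 to 15.3 FPKM over the 6 libraries and made up 8.04%, 7.39% and 7.87% of the summed enolase FPKM in siOGT1, siOGT2 and siNC. GENCODE 29 names 62 pseudogenes after GAPDH, 13 after PGAM1, 6 after LDHA, 5 after PKM and 4 each after TPI1 and ENO1, and the labels do not say how reads shared with such copies were counted. A GENCODE antisense gene covers 14.2% of the exon length of GAPDH.

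At the fate of pyruvate, LDHA (ENSG00000134333, chromosome 11, 18394388 to 18408425, plus strand), the lactate dehydrogenase subunit that favours lactate, had 134 and 133 FPKM with siOGT1 and 142.5 and 145 with siOGT2, against 133 and 129 with siNC. The siOGT2 libraries stood above the other 4. LDHA rose with siOGT2 (log2 fold change 0.13, SE 0.0290, adjusted p = 0.00698) and not with siOGT1 (0.03, adjusted p = 0.568), and the siOGT2 call ended under the trimmed mean (adjusted p = 0.0538), without siNC replicate 2 (0.0632) and without siOGT2 replicate 2 (0.0583). PDK1, a HIF target that shuts pyruvate dehydrogenase by phosphorylating it, ranged from 3.04 to 3.53 FPKM and passed nowhere. Beside the rises with siOGT2, 11 of 13 mitochondrial genome transcripts were also higher with siOGT2 (median log2 fold change 0.250) and 1 of 13 with siOGT1 (median 0.081). Of all tested genes, 22.1% were higher with siOGT2 and 9.51% with siOGT1. Under the trimmed mean, 11 of the 13 were higher with siOGT2 and 0 with siOGT1. Both tested epithelial markers, the keratins KRT8 (log2 fold change 0.23, adjusted p = 0.00774) and KRT18 (0.24, adjusted p = 0.00543), were higher with siOGT2 as well. The 4 listed epithelial markers summed to 29.3 and 30.3 FPKM with siOGT1 and 31.9 and 34.1 with siOGT2, against 26.8 and 28.3 with siNC, while EPCAM and CDH1, which define epithelium, averaged 0.709 and 0.0404 over all libraries. Of the 3 tested stroma markers, the collagen gene COL3A1 was higher with siOGT1 (0.23, adjusted p = 0.0175) and siOGT2 (0.16, adjusted p = 0.0411), and LUM was lower with siOGT1 (-0.24, adjusted p = 0.00663). Granulosa markers moved too: INHBB (0.37 and 0.57, adjusted p = 0.0038 and 0.000186) and STAR (0.39 and 0.32, adjusted p = 0.0163 and 0.0219) were higher with siOGT1 and siOGT2. NR5A1 was higher with siOGT1 alone (0.14, adjusted p = 0.0494), and FOXL2, AMH, INHBA, GATA4 and NR2F2 passed with neither. The COL3A1, KRT8, STAR and NR5A1 calls ended under some alternative settings, while those of KRT18, LUM and INHBB held under each. With siOGT2, COL3A1 did not pass under the trimmed mean (adjusted p = 0.160). The part of these differences between libraries in the members' changes was not tested.

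Of the 12 hypoxia-response members, 9 were tested. With siOGT1, 1 fell and none rose (11.1% passed, against 17.6% of all tested genes). With siOGT2, 1 fell and 1 rose (22.2% passed, against 35.5% of all tested genes). ADM was the gene that fell in both. CA12 (ENSG00000074410, chromosome 15, 63321378 to 63382161, minus strand), a cell-surface carbonic anhydrase that helps to set pH, had 1.095 and 1.19 FPKM with siOGT1 and 1.66 and 1.58 with siOGT2, against 1.01 and 1.215 with siNC. Its siOGT2 libraries stood above the other 4, which overlapped. CA12 rose with siOGT2 (log2 fold change 0.31, SE 0.0756, adjusted p = 0.0116), and its mean FPKM was 146% of siNC there and 103% with siOGT1. It had 141 to 211 reads per library, the fewest of the tested members. The call held under the trimmed mean (adjusted p = 0.0194) and ended without siNC replicate 1 (0.0851) or siOGT2 replicate 1 (0.0600).

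P4HA2, a collagen prolyl 4-hydroxylase subunit, had 7.97 and 8.11 FPKM with siOGT1 and 7.98 and 7.88 with siOGT2, against 7.555 and 6.90 with siNC. It passed with neither siRNA alone (adjusted p = 0.0915 and 0.0897), although the voom fit called it with each (0.0159 and 0.0281), and passed in the mean of both (log2 fold change 0.13, SE 0.0431, adjusted p = 0.0490). That call ended with the replicate number as a block (adjusted p = 0.0563), with no filter (0.0993), under the trimmed mean (0.154), without siNC replicate 2 (0.364) and without any 1 of the siOGT libraries (0.0728 to 0.0971). Its relative P4HA1 had 30.1 ± 0.168 and 32.6 ± 2.67 FPKM with siOGT1 and siOGT2, against 31.4 ± 0.581 with siNC (SD, n = 2), and did not pass with all libraries.

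The remaining tested HIF targets did not pass as deposited. VEGFA, the main growth factor for blood vessels, had 19.1 ± 0.566 FPKM with siOGT1 and 18.3 ± 0.238 with siOGT2, against 18.6 ± 0.622 with siNC. NDRG1, a differentiation and stress gene, ranged from 1.56 to 1.77 FPKM. KDM3A, a histone H3 lysine demethylase induced by HIF, had 7.17 ± 0.0875 and 6.76 ± 0.137 FPKM, against 7.32 ± 0.249, and was called lower with siOGT2 only under the trimmed mean (adjusted p = 0.0438) and in the voom fit (0.0434). BNIP3, a mitophagy receptor, had 19.1 and 18.7 FPKM with siOGT1 and 19.6 and 18.7 with siOGT2, against 19.7 and 20.4 with siNC. All 4 siOGT libraries of BNIP3 lay below both siNC libraries, yet the difference did not pass in the mean of both (log2 fold change -0.07, adjusted p = 0.134), except under the trimmed mean (-0.11, adjusted p = 0.0389). GENCODE 29 names 39 pseudogenes after BNIP3.

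HIF1A mRNA did not pass in any contrast. It had 272 and 277 FPKM with siOGT1 and 286 and 287 with siOGT2, against 284 and 287 with siNC, with log2 fold changes of -0.06 (SE 0.0277, adjusted p = 0.193) and 0.01 (SE 0.0277, adjusted p = 0.862). Its siOGT1 libraries were the lowest of the 6. HIF1 alpha is controlled mainly at the level of protein, which was not measured here. Of the HIF1A regulators, VHL, the substrate receptor of the ligase that destroys HIF alpha, had 3.87 and 4.54 FPKM with siOGT1 and 6.41 and 6.61 with siOGT2, against 6.70 and 6.40 with siNC. VHL fell with siOGT1 (log2 fold change -0.54, SE 0.0646, adjusted p = 0.000493) and did not pass with siOGT2 (-0.01, adjusted p = 0.940). The difference between the siRNAs itself passed (-0.53, adjusted p = 0.000608). ARNT, the constant partner of the HIF alpha subunits, had 10.7 and 10.1 FPKM with siOGT1 and 11.1 and 11.1 with siOGT2, against 9.34 and 8.82 with siNC. It rose with siOGT1 (log2 fold change 0.18, adjusted p = 0.0297) and with siOGT2 (0.27, adjusted p = 0.00248), and the siOGT1 call ended under the trimmed mean (0.0783), with no filter, without either siNC library and without siOGT1 replicate 1. EPAS1, the HIF2 alpha subunit, did not pass (adjusted p = 0.0532 and 0.314).

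Counting members by whether groups overlap, 8 of the 29 had all 4 siOGT libraries above both siNC libraries and 4 had them below. Over all tested genes 28.4% lay above and 13.3% below, so both counts lay near the background. The 8 were HK1, GPI, PFKL, PFKP, TPI1, PGAM1, LDHA and P4HA2, and the 4 were HK2, SLC16A1, ADM and BNIP3.

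The siRNAs target the same mRNA, and the contrast of siOGT1 against siOGT2 tests where they differed. Of the 29 members 4 passed, 1 higher and 3 lower, where 16.6% of all genes passed (8.35% higher, 8.24% lower). HK2 was higher with siOGT1 (log2 difference 0.13, SE 0.0359, adjusted p = 0.0368), and GAPDH (-0.15, SE 0.0330, adjusted p = 0.0147), LDHA (-0.11, SE 0.0290, adjusted p = 0.0333) and CA12 (-0.29, SE 0.0756, adjusted p = 0.0292) were lower with siOGT1 than with siOGT2. For each of the 4, the libraries of the siRNAs did not overlap. OGT mRNA did not pass in this contrast (-0.11, adjusted p = 0.123), except in the voom fit (0.0343). No member was called in opposite directions by the siRNAs against siNC. The count of 4 did not hold when single libraries were left out, which leaves 1 library in a group. MT-CO1, a gene outside the members, lost its call in this contrast without either siNC or either siOGT2 library as well. Among the called marker genes it alone did so without a siNC library. MT-ND5 kept its call in this contrast under each of the 11 alternative settings, and LUM lost its call only without siOGT2 replicate 1. None of the 4 passed without siOGT1 replicate 1, siOGT2 replicate 1 or siOGT2 replicate 2. Without siOGT2 replicate 1 the count was 1, and that gene was P4HA1 (log2 difference -0.19, adjusted p = 0.0259). The count was 2 without siOGT1 replicate 2 or without either siNC library. With all libraries 8 members had an unadjusted p under 0.05, and voom, a count-based limma fit on recovered reads, called 5. Under the trimmed mean it was again 4, with LDHA lost (adjusted p = 0.0603) and PFKFB3 gained (0.0420).

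**Figure D5:**
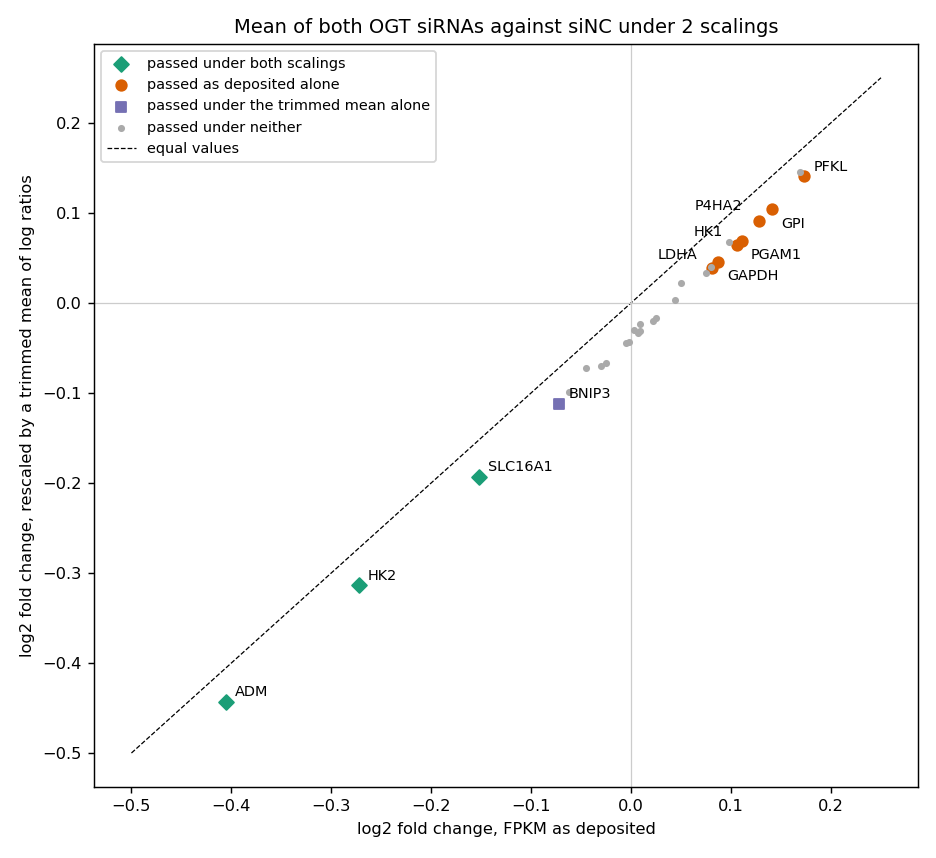
Log2 fold change of each tested member in the mean of both OGT siRNAs against siNC, with FPKM as deposited (x axis) and after rescaling by the trimmed mean (y axis); the dashed line marks equal values. All points lie below the line. ADM, HK2 and SLC16A1 passed under both scalings, the 7 members that rose as deposited did not pass after rescaling, and BNIP3 passed after rescaling alone.

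Other genes of the pathways were counted from 4 further lists with 74 genes. With siOGT1, 17.6% of all tested genes passed (9.51% higher, 8.1% lower), and with siOGT2 35.5% (22.1% higher, 13.4% lower). The shares with siOGT1 and siOGT2 were 29.4% and 47.1% for other glycolytic and pyruvate genes and 0% and 42.9% for pentose phosphate genes. They were 15.4% and 23.1% for HIF regulators and 29.6% and 40.7% for other hypoxia-responsive genes. Whether a list differed from all genes was not tested. Of the 17 tested genes of other glycolytic and pyruvate steps, 4 rose and 1 fell with siOGT1, and 6 rose and 2 fell with siOGT2. HKDC1 is described above. GPD1L, a relative of the dehydrogenase that makes glycerol 3-phosphate, had 4.915 and 4.69 FPKM with siOGT1 and 5.32 and 4.815 with siOGT2, against 3.49 and 3.94 with siNC, and rose with each (log2 fold change 0.30 and 0.37, adjusted p = 0.0131 and 0.00288). Its siOGT1 call ended with no filter and without siNC replicate 1 or siOGT1 replicate 1. SLC2A3, the high-affinity glucose transporter GLUT3, had 29.2 and 28.5 FPKM with siOGT1 and 25.4 and 24.6 with siOGT2, against 30.1 and 29.96 with siNC. It fell with siOGT2 (log2 fold change -0.25, adjusted p = 0.000591), where the call held under each alternative setting, and the siRNAs differed (0.20, adjusted p = 0.00449). With siOGT1 SLC2A3 did not pass (-0.06, adjusted p = 0.278).

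Of the 7 pentose phosphate genes, none passed with siOGT1 in limma, with 0 at an unadjusted p under 0.05, and 3 rose with siOGT2. TALDO1, the transaldolase, had 22.2 and 22.3 FPKM with siOGT1 and 24.6 and 25.4 with siOGT2, against 21.5 and 21.2 with siNC (siOGT2 log2 fold change 0.22, adjusted p = 0.00145). RPE and TKT rose less with siOGT2 (0.16 and 0.15), and under the trimmed mean neither passed (adjusted p = 0.0602 and 0.0786), nor without siNC replicate 1 or siOGT2 replicate 2. Of the 13 tested HIF regulators, 1 rose and 1 fell with siOGT1, and 2 rose and 1 fell with siOGT2. Of the 27 tested other hypoxia-responsive genes, 7 rose and 1 fell with siOGT1, and 8 rose and 3 fell with siOGT2, which under the trimmed mean became 4 higher and 1 lower, and 4 higher and 4 lower, beside the turn over all genes given above. ERO1A, which drives disulphide bonding in the endoplasmic reticulum, had 9.63 and 9.785 FPKM with siOGT1 and 11.4 and 10.8 with siOGT2, against 8.99 and 8.09 with siNC, and rose with siOGT2 (0.35, adjusted p = 0.00129). GBE1, the glycogen branching enzyme, rose with siOGT1 (0.24, adjusted p = 0.00401) and with siOGT2 (0.13, adjusted p = 0.0399), and the siOGT2 call ended under the trimmed mean (0.193), with no filter, and without siNC replicate 2 or either siOGT2 library. ANGPTL4, a lipase inhibitor induced by hypoxia, had 3.05 and 2.55 FPKM with siOGT1 and 3.48 and 2.94 with siOGT2, against 4.07 and 4.26 with siNC, and fell with each (-0.45 and -0.30, adjusted p = 0.00549 and 0.0204). Its siOGT1 call ended with no filter (0.0518), and its siOGT2 call ended with no filter, without siOGT2 replicate 2 and without either siNC library.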

How the data were processed

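RNA-seq libraries of KGN cells, 6 in all, were analysed. The submitters' processing notes name cutadapt 1.15, HISAT2 and GRCh38. Not given in the sources used here are the counting program and its annotation. The authors deposited FPKM values for 20036 genes, of which 20011 matched a gene name table. Each FPKM is a whole number of reads scaled by gene length and library total, so depth was recovered from low values: with a tolerance of 0.01 reads, whole reads came out for 99.91% of tested genes, with a median of 764 to 974 reads per tested gene and library.

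The tests used log2(FPKM + 1) for the 10547 genes with a mean of at least 1 FPKM. The added 1 understates changes of low genes. All 6 libraries entered 1 limma 3.58.1 fit (R 4.3.3; trended eBayes, 3 residual degrees of freedom), two-sided, with Benjamini-Hochberg adjustment over all tested genes and a threshold of 0.05, for 4 contrasts. On simulated data for the mean of both siRNAs (10508 genes) it recovered 20% of 50 genes changed 1.1-fold and 82% of 50 changed 1.25-fold. That simulation gave every gene the same spread between libraries beyond counting (dispersion 0.000263) and changed only a small part of the genes. In the data 31.1% of all tested genes passed in this contrast, so these rates do not give the power of the fit here. Members, lists and tests were chosen with earlier results of these data known. All members are accounted for, values by library are given for those that passed in any contrast, and of each further list at most 3 genes are named, by their p in the contrast of the mean of both siRNAs; any other gene named, and any further member given by library, was chosen after its values were seen. Positions and overlaps come from GENCODE 29, promoters from RefSeq. Alternatives were a pseudocount of 0.1, no filter, a trimmed mean of log ratios, a replicate block, each library left out and, added after seeing the data, limma's voom on recovered reads.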

Additional observations from a re-analysis of the deposited data

Results flagged for a closer look

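The effects of the OGT siRNAs differed for 4 members by the direct contrast of siOGT1 minus siOGT2 on the log2(FPKM + 1) scale. These were 13.8% of the 29 tested members, where 16.6% of all tested genes passed, so their count lay near the background. The difference was 0.13 for HK2, -0.15 for GAPDH, -0.11 for LDHA and -0.29 for CA12, with adjusted p between 0.0147 (GAPDH) and 0.0368 (HK2) in limma. HK2 fell with each siRNA, further with siOGT2. The other three rose with siOGT2 and did not pass with siOGT1. Over their alternatives the adjusted p ran from 0.00943 to 0.184 for HK2, 0.000132 to 0.126 for GAPDH, 0.00308 to 0.185 for LDHA and 0.00327 to 0.132 for CA12.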

How the results depend on the processing

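Counts of members that passed, of 29 tested, were 4 with siOGT1, 10 with siOGT2, 10 in the mean of both and 4 between the siRNAs. Of all tested genes, 17.6%, 35.5%, 31.1% and 16.6% passed in these contrasts. With no filter on low values, 17114 genes were tested instead of 10547. The members' counts were then 1 for siOGT1, 10 for siOGT2, 6 for the mean and 0 between the siRNAs. Beside that 0, 8 members had an unadjusted p under 0.05 in the filtered limma fit and voom on recovered reads called 5. Some calls outside the members, such as those of COL3A1 and MT-CO1 with siOGT2, also ended with no filter and without either siOGT2 library. Others, such as those of INHBB, KRT18 and MT-ND5 with siOGT2, held under each of the 11 alternatives. The counts over all genes with no filter, with a library left out and with the replicate block are not given here. Under the trimmed mean of log ratios the mean count was 4 (0 higher, 4 lower), while all genes gave 1121 higher and 1651 lower, against 2041 and 1243 as deposited. Leaving out each library gave 1 to 4 for siOGT1, 5 to 10 for siOGT2, 3 to 8 for the mean and 0 to 2 between the siRNAs. The replicate block gave 4, 10, 8 and 4. The replicate numbers did not pair the libraries: replicate differences correlated at 0.0494 between siOGT1 and siOGT2, -0.0218 between siOGT1 and siNC and -0.0262 between siOGT2 and siNC. Of 1276 results for single members under 11 alternatives, 97 lost their call, 15 gained one and none with a call changed sign. Signs changed in 62 results that passed under neither setting. Depth limits EGLN3 and CA9, with at most 4 reads per library.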
